A study of Mus musculus with 2 samples.

Results

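Pleiotrophin (Ptn), midkine (Mdk) and the cell surface proteins that bind them, Ptprz1, Alk and Sdc3, were examined in mouse embryos at E10.5, in brains homozygous for the luxoid mutation (Plzf lu/lu) and in wild type brains. The members were taken by gene symbol from the array annotation. They make up 5 of 37074 gene names and 12 of 56605 probes, and each of the 12 probes had 1 spot per array. The genes were chosen with the ratios of these arrays in view, because the probes of Ptn disagreed and Ptn had been listed by the study. The values of the members are therefore given as a description, and no test was made on them.

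Plzf is the protein of the gene Zbtb16, a zinc finger transcriptional regulator. Luxoid mice carry a spontaneous single-base change in its first coding exon, which truncates the protein, and homozygotes are written Plzf lu/lu. The question was which transcripts differ in the embryonic brain when Plzf is lost. RNA of 2 wild type C57BL/6 brains was labeled with Cy3 and RNA of 2 luxoid brains with Cy5. Each of 2 arrays carried 1 sample of either genotype. The sample labels call the tissue brain, the methods call it forebrain and midbrain, and the number of embryos behind each sample was not stated in the sources used here. The strain background of the luxoid mice was not given there, nor whether the wild type embryos of the arrays were littermates. The dyes were not exchanged, so dye and genotype cannot be told apart for any probe. Both arrays lay on 1 slide.

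Pleiotrophin and midkine are secreted heparin-binding proteins and form a small family of growth factors of their own. Midkine is abundant in the neural tube at mid-gestation, and pleiotrophin is made by neural progenitors and later by glia and vessels. Both bind the sulfated sugar chains of proteoglycans on the cell surface. Ptprz1 is a receptor tyrosine phosphatase of radial glia that carries chondroitin sulfate, and ligand binding lowers its phosphatase activity. Phosphacan, a secreted splice form, holds only the outer part of the same protein. Sdc3, or N-syndecan, is a heparan sulfate proteoglycan that binds pleiotrophin during neurite outgrowth, and Alk is a receptor tyrosine kinase that has been described as a further receptor of both factors.

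The probes are shown because the results turn on where along a transcript each one binds. Sequences are those of the deposited annotation, 5′ to 3′ on the sense strand, with positions in build mm9. The capitals in the Mdk junction probe mark the stop codon, which starts at base 56 of the probe. The other sequences are in lower case throughout. Only the Ptn 5′ probe and the Mdk junction probe are shown at their full 60 bases, and 30 bases are shown of the rest.
Ptn 5′ probe: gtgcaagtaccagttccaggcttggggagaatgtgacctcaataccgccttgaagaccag
Ptn 3′ probe: gaaagtttgcagactgagaggagagaggca
Mdk junction probe: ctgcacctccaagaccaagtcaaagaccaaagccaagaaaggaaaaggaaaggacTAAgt
Mdk tail probes: ccctcttttgttctccccaccctgatactt
Ptprz1 upstream probe: ccctaacctgaacctcggcatttatgttac
Ptprz1 downstream probe: gaagaaagggtgtaggacatccctcatcca
Sdc3 probe: gagttcatggccaaaacttaaataagagaa

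The Ptn 5′ probe (A_55_P2164629, chr6:36691376-36691435, minus strand) is annotated to NM_008973 and has 1 reading frame without a stop codon. The Ptn 3′ probe (A_66_P110662, chr6:36665068-36665127, minus strand) is annotated to the predicted transcript variant XM_006505757 and lies 26.3 kb further downstream. XM_006505757 is listed for both probes. The Mdk junction probe (A_66_P107379, chr2:91770245-91771006, minus strand) spans 762 bases of genome and therefore crosses an intron. The Mdk tail probes (A_51_P225665, chr2:91770023-91770082, and A_55_P2503910, chr2:91769993-91770052) lie downstream of that stop codon and overlap by the 30 bases shown, so they do not measure Mdk independently. The Ptprz1 upstream probe (A_51_P370996, chr6:22954436-22954495, plus strand) is annotated to the DSD-1-proteoglycan mRNA AJ133130, a phosphacan form. The Ptprz1 downstream probe (A_55_P2000439, chr6:23002114-23002173, plus strand) lies 47.7 kb further on and is annotated to NM_001081306. The Sdc3 probe is A_52_P282741 (chr4:130382015-130382074, plus strand, NM_011520). No member probe shared a stretch of 20 bases with a probe of another gene on the array. Matches to the genome, such as a pseudogene of Mdk, could not be checked.

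Values are processed signals, that is, spot intensities after the authors' background subtraction and dye normalization within each array. A ratio is the signal of Plzf lu/lu over that of wild type on 1 array, given on the log2 scale, so that a negative value means less signal in Plzf lu/lu. The thresholds were those of the study, which did not state in how many channels they had to be met. Here a probe was kept if all 4 channels had a processed signal over 200 and a signal-to-noise ratio of 5 or more. Of the 12 member probes, 7 were kept. These were both Ptn probes, 3 Mdk probes, the Ptprz1 downstream probe and the Sdc3 probe, and none of the 3 Alk probes was kept. Well above background in every channel, by the scanner software, were 9 of the 12. A further Ptprz1 probe and 2 Alk probes were not well above background in any channel, and no ratio is given for them. A probe was counted as changed when the ratio was above 1.3, or below its inverse 0.769, on each array, which is 0.38 on the log2 scale.

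Of the 7 kept member probes, 1 lay beyond 1.3-fold on both arrays in the direction of lower signal in Plzf lu/lu, and none lay beyond it in the other direction. Over all 13186 kept probes, 0.849% lay beyond the threshold in the lower direction and 2.28% in the higher. The ratio was below 1 on both arrays for 5 of the 7 and above 1 on both for 1 of the 7. Among all kept probes these shares were 38.3% and 34.9%. As members were chosen on these ratios, nothing is read from their counts.

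Pleiotrophin had the lowest ratio of the members, and its probes did not give the same value. At the Ptn 5′ probe, the processed signals of wild type were 1522 (array 1) and 1726 (array 2). Those of Plzf lu/lu were 1004 and 980. Both wild type signals lay above both Plzf lu/lu signals. The log2 ratio was -0.60 on array 1 and -0.82 on array 2, with a mean of -0.71 ± 0.15 (SD, n = 2 arrays). This is the member probe beyond 1.3-fold on both arrays, with ratios of 0.659 and 0.568.

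The Ptn 3′ probe behaved differently between the arrays. Wild type gave processed signals of 2182 on array 1 and 3084 on array 2, and Plzf lu/lu gave 2300 and 2165. The signals of the genotypes overlapped. The log2 ratio was 0.08 on array 1 and -0.51 on array 2, with a mean of -0.22 ± 0.41 (SD, n = 2 arrays), so the mean was smaller than the spread between arrays. The arrays differed mainly in the wild type channel, in which the Ptn 3′ signal on array 2 was higher than on array 1 by 0.50 on the log2 scale. In the Plzf lu/lu channel the same difference was -0.09. Over all kept probes, the difference of array 2 from array 1 lay between -0.305 and 0.253 (5th and 95th percentile) in the wild type channel. The Ptn 3′ probe was therefore outside that range in wild type. When 1 gene was represented by its brightest probe, Ptn was read from the 3′ probe and did not count as changed.

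**Figure D1:**
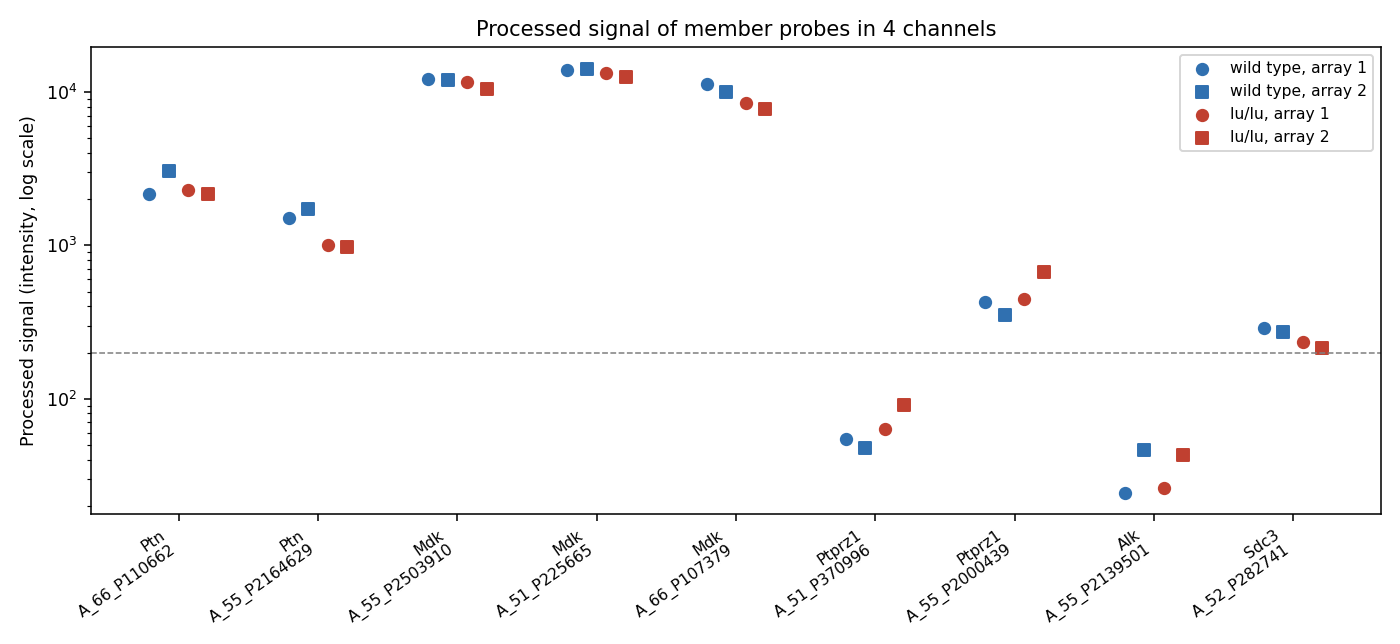
Processed signal (intensity, log axis) of the 9 member probes well above background in every channel, with wild type in blue, Plzf lu/lu in red, array 1 as circles and array 2 as squares, and the dashed line at 200. Wild type signals lie above both Plzf lu/lu signals at the Ptn 5′ probe (A_55_P2164629), while at the Ptn 3′ probe (A_66_P110662) wild type on array 2 stands apart at 3084. Levels of different probes are not comparable.

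Midkine signals lay between 7773 and 14278, and Mdk ratios were below 1 on both arrays at each of its 3 probes. At the Mdk junction probe, wild type gave 11376 on array 1 and 10083 on array 2, and Plzf lu/lu gave 8457 and 7773. The genotypes did not overlap. The log2 ratio was -0.43 on array 1 and -0.38 on array 2, with a mean of -0.40 ± 0.04 (SD, n = 2 arrays). The ratios were 0.743 and 0.771, so array 2 fell just short of the inverse of 1.3, and this was the member probe nearest to the threshold from outside. The Ptn 5′ probe, the only member probe beyond the threshold on both arrays, had ratios of 0.659 and 0.568.

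The Mdk tail probes gave smaller differences than the junction probe. At A_51_P225665, wild type gave 14005 on array 1 and 14278 on array 2, and Plzf lu/lu gave 13265 and 12608. Its log2 ratio was -0.08 on array 1 and -0.18 on array 2. At A_55_P2503910, wild type gave 12266 and 12075, and Plzf lu/lu gave 11755 and 10557, with log2 ratios of -0.06 and -0.19. Their means were -0.13 ± 0.07 and -0.13 ± 0.09 (SD, n = 2 arrays). The genotypes did not overlap at either tail probe. With the GC trend removed, the log2 ratios were -0.02 and -0.16 at A_51_P225665 and -0.21 and -0.25 at A_55_P2503910. Repeated spots of 1 probe on an array share their RNA and dyes. The SD of their log2 ratio had a median of 0.0357 on array 1 and 0.0359 on array 2. Its 95th percentile was 0.074 on array 1 and 0.090 on array 2. This spread holds no difference between samples, so it is no yardstick for the genotypes.

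**Figure D2:**
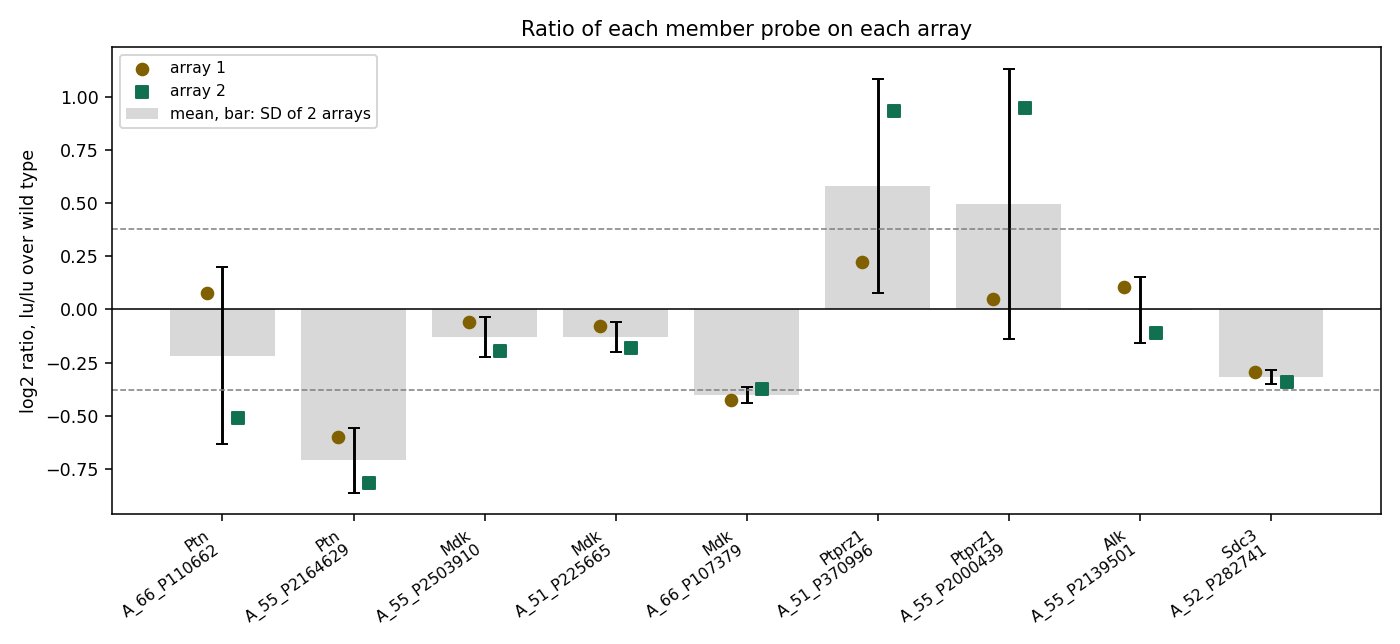
Log2 ratio of Plzf lu/lu over wild type for the same 9 probes, on array 1 (circles) and array 2 (squares), with grey bars for the mean, error bars for the SD of the 2 arrays and dashed lines at 1.3-fold. The Ptn 5′ probe (A_55_P2164629) lies below the lower line on both arrays, at -0.60 and -0.82, and both Ptprz1 probes lie near 0.9 on array 2 but at 0.05 and 0.22 on array 1.

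For Ptn and for Mdk, the probe nearer the 5′ end had the lower ratio. The difference of the 5′ from the 3′ log2 ratio was -0.68 on array 1 and -0.31 on array 2 for Ptn. For Mdk, from the junction probe to the last tail probe, it was -0.37 and -0.18. A lower ratio at the 5′ probe was common on these arrays. Among 2057 genes with a kept probe at each of 2 separate positions, the median difference of the most 5′ from the most 3′ probe was -0.199 on array 1 and -0.0987 on array 2. The 5′ probe was lower on both arrays in 1315 of these genes (63.9%) and higher on both in 319 (15.5%). Among the 382 genes whose probes lay at least 10 kb apart, as those of Ptn do, the medians were -0.215 and -0.0867.

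Against this distribution, 56 of the 2057 genes (2.72%), Ptn included, had a 5′ probe at least as far below the 3′ probe as Ptn had on each array. For Mdk this number was 383 (18.6%). A mean difference at least as large in either direction was found in 115 genes (5.59%) for Ptn and in 592 (28.8%) for Mdk. The ratio also fell with the GC content of the probe, with a Spearman's rho across 13186 kept probes of -0.383 on array 1 and -0.199 on array 2. Ptn was chosen because its probes disagreed, so its place among the 2057 genes is no test of that disagreement. Probes of 1 array also share its hybridization and are not independent, so these values are a description. The Ptn 5′ probe has a GC content of 53.3% and the Ptn 3′ probe one of 43.3%. With the GC trend removed on each array, the Ptn 5′ probe gave -0.49 and -0.78, and the Ptn 5′ probe was still below the 3′ probe, by -0.57 on array 1 and -0.27 on array 2. For Mdk the difference became -0.20 and -0.11. The median over the 2057 genes became -0.14 and -0.076. The parts of probe position, probe GC content and transcript form in the difference between the Ptn probes were not tested.

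**Figure D3:**
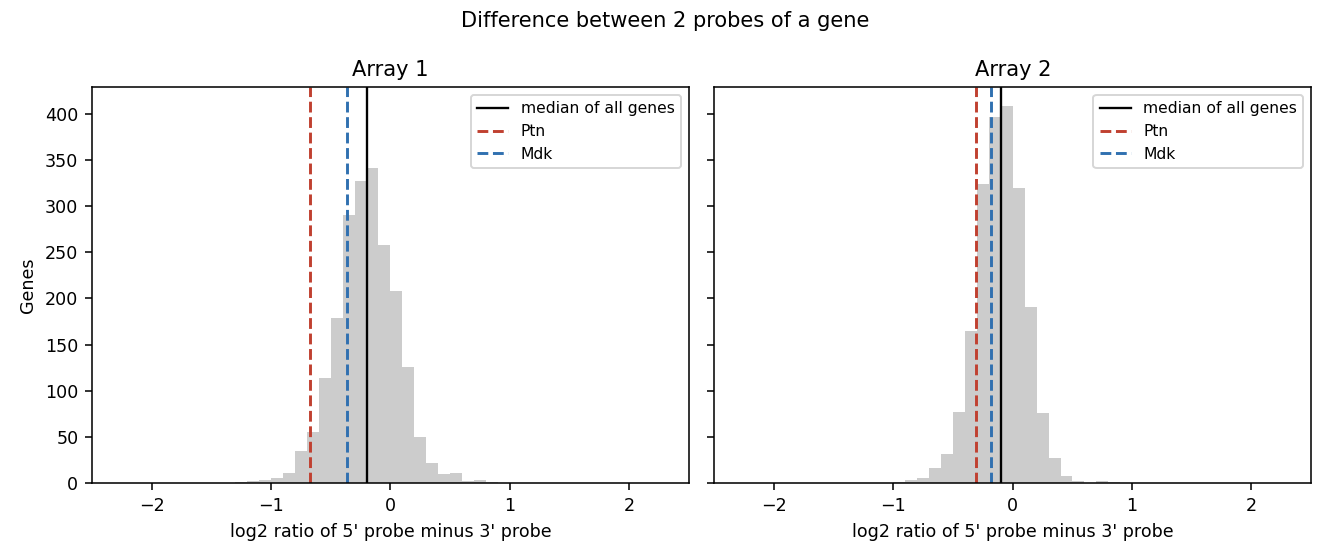
Number of genes by the log2 ratio of their most 5′ probe less that of their most 3′ probe, on array 1 (left) and array 2 (right), for 2057 genes in bins of equal width. The black line marks the median (-0.199 and -0.0987), and the dashed lines mark Ptn (-0.68 and -0.31) and Mdk (-0.37 and -0.18), all to the left of 0.

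Ptprz1, the phosphatase receptor, had a higher ratio on 1 array only. At the Ptprz1 downstream probe, wild type gave 429 on array 1 and 350 on array 2, and Plzf lu/lu gave 444 and 673. The Plzf lu/lu signals lay above both wild type signals, but on array 1 by little. The log2 ratio was 0.05 on array 1 and 0.95 on array 2, with a mean of 0.50 ± 0.63 (SD, n = 2 arrays), which is a smaller mean than its spread. With the GC trend removed, the log2 ratio was -0.07 on array 1 and 0.90 on array 2. The direction on array 1 therefore depended on that correction.

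The Ptprz1 upstream probe, on the phosphacan-type mRNA, was too dim to be kept but gave the same order. Wild type gave 54.4 on array 1 and 47.4 on array 2, and Plzf lu/lu gave 63.5 and 90.6. Its log2 ratio was 0.22 on array 1 and 0.93 on array 2, with a mean of 0.58 ± 0.50 (SD, n = 2 arrays). At both probes, the Plzf lu/lu sample of array 2 was the highest. From array 1 to array 2 the Plzf lu/lu signal differed by 0.60 at the downstream and by 0.51 at the upstream probe, and the wild type signal by -0.30 and -0.20. Over all kept probes, the 95th percentile of that difference in the Plzf lu/lu channel was 0.204. In the wild type channel the 5th percentile was -0.305, close to the value of the downstream probe. The upstream probe was dimmer than the kept probes, so these percentiles are no measure of its spread. The probes measure the same RNA samples, so they do not replicate the biology.

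Sdc3, the heparan sulfate receptor, had close ratios on the arrays. Wild type gave 288 on array 1 and 273 on array 2, and Plzf lu/lu gave 235 and 216. The genotypes did not overlap. The log2 ratio was -0.29 on array 1 and -0.34 on array 2, with a mean of -0.32 ± 0.03 (SD, n = 2 arrays), short of 1.3-fold on both arrays. The signals lay just above the minimum of 200.

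Alk, the kinase receptor, was near the limit of detection. The only Alk probe well above background (A_55_P2139501, chr17:72218357-72218416, minus strand, NM_007439) gave 24.3 on array 1 and 46.1 on array 2 in wild type. In Plzf lu/lu it gave 26.2 and 42.7. The log2 ratios of 0.11 and -0.11 had opposite signs. The arrays differed more than the genotypes did, by 0.92 in wild type and 0.70 in Plzf lu/lu on the log2 scale from array 1 to array 2. A difference of Alk between the genotypes was not detectable at this signal.

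**Figure D4:**
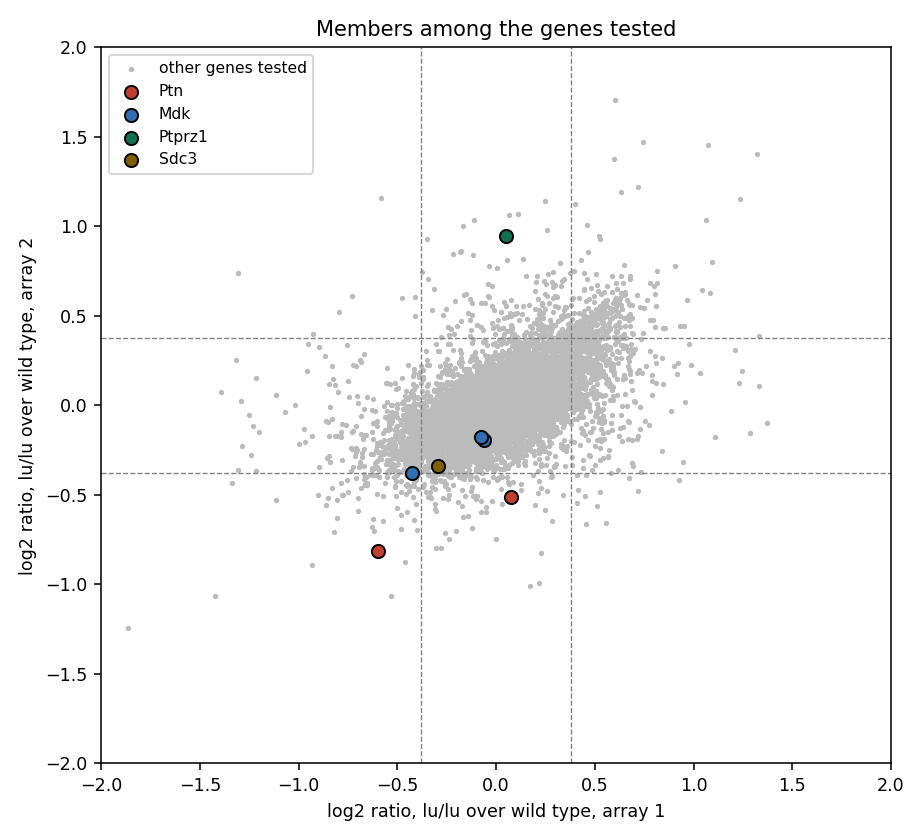
Log2 ratio of Plzf lu/lu over wild type on array 1 (horizontal) against array 2 (vertical) for the genes tested (grey, 3 of them outside the plotted range) and for the 7 kept member probes (coloured by gene). Dashed lines mark 1.3-fold. The Ptn 5′ probe, at -0.60 and -0.82, is the member in the lower left corner, and the Ptprz1 probe lies high on array 2 alone.

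The members stand beside measurements that differed between the samples. The mutated gene Zbtb16 itself had a log2 ratio of -1.33 on array 1 and -1.37 on array 2 at its brighter probe (chr9:48462419-48462478), with signals of 433 and 546 in wild type and of 172 and 211 in Plzf lu/lu. The wild type channel of array 1 had 36936 spots well above background, fewer than the other 3 channels (43546 to 44318). Lists of marker genes checked the tissue. All 9 genes of the neural progenitor list and all 8 of the neuron list were well above background in every channel, and Ptn and Ptprz1 are both known from progenitors. The summed signal of the 8 progenitor markers kept, on the log2 scale, was 15.2 and 15.1 in wild type and 15.2 and 15.5 in Plzf lu/lu on arrays 1 and 2. That of the 7 neuron markers kept was 12.8 and 12.6 in wild type and 12.9 and 13.3 in Plzf lu/lu. The median ratio of the 7 neuron markers tested was 0.14 on array 1 and 0.72 on array 2. For the 8 progenitor markers tested it was 0.12 and 0.42. Both medians were larger on the array on which Ptprz1 was higher. Pax6 (0.37 and 0.11) and Hes1 (0.36 and -0.07) went the other way, and the other tested progenitor markers went with the median. With 2 arrays, such likeness rests on 2 values.

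Regional and non-neural markers also differed. Of 5 forebrain markers, 3 were beyond 1.3-fold higher on both arrays, against 2.58% of all genes tested. The others, Lhx2 (-0.18 and 0.86) and Emx2 (-0.16 and 0.62), were lower on array 1 and higher on array 2. The medians of the forebrain list were 0.38 and 0.62. Its summed signal was 12.8 and 12.5 in wild type and 13.1 and 13.2 in Plzf lu/lu. The only kept gene of the 5 in the midbrain and isthmus list, En2, had ratios of -1.86 and -1.25. The signal of En2 on the log2 scale was 10.9 and 11.2 in wild type and 9.04 and 9.93 in Plzf lu/lu. The 2 endothelial markers kept of 9 had medians of -0.22 and -0.61, with a summed signal of 11.9 and 12.1 in wild type and of 11.8 and 11.7 in Plzf lu/lu. Erythroid markers (5 of 7 kept) had medians of -0.90 and 0.12 and summed to 18.8 and 17.6 in wild type and to 17.9 in both Plzf lu/lu samples. Endothelium and macrophages have been described as further sources of the ligands, and the macrophage markers (2 of 5 kept) had medians of -0.35 and -0.19, with their lowest summed signal, 10.6, in Plzf lu/lu on array 1. Medians were -0.04 and -0.26 for mesenchyme and neural crest markers (8 of 11 kept), and 0.54 and -0.30 for surface ectoderm markers (5 of 6 kept). All listed endothelial, erythroid and macrophage markers were well above background. The part of cell makeup and of the region dissected in the values of Ptn, Mdk and the receptors was not tested, and in whole tissue fewer cells of a type and less RNA per cell cannot be told apart.

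The wider pathway was read from 93 genes in 6 lists, of which 49 were among the 10600 genes tested, each by its brightest probe. Beyond 1.3-fold on both arrays, 9 of the 49 were higher in Plzf lu/lu and 0 were lower. Over all genes tested, these shares were 2.58% and 0.736%. The 49 genes had a median log2 ratio of 0.21 on array 1 and 0.05 on array 2, against 0.02 and -0.0047 over all genes. In limma with Benjamini-Hochberg adjustment over the 10600 genes, 1 pathway gene had an adjusted p under 0.05, and 27 had an unadjusted p under 0.05. Over all genes tested, 0.0283% passed the adjusted and 27.8% the unadjusted threshold. The lists were chosen with earlier results of these data known, so nothing about the pathway as a whole is read from these counts. Lrp2 and Nrcam had been listed by the study from these arrays, which leaves 7 higher genes without them. With array 2 left out the count of higher genes was 16, and with array 1 left out it was 11. The test has 1 residual degree of freedom per gene and leans on the variance pooled across genes.

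Nrcam, a neuronal adhesion protein that binds the outer part of Ptprz1 together with contactin, had the highest ratio of the pathway. Its signal was 281 and 342 in wild type and 660 and 760 in Plzf lu/lu on arrays 1 and 2, with no overlap. The log2 ratio was 1.23 and 1.15, with a mean of 1.19 ± 0.06 (SD, n = 2 arrays), and limma gave an adjusted p of 0.0394. The call was lost in 6 alternatives, with an adjusted p of up to 0.506, and as the study had listed Nrcam from these arrays it is not independent evidence. Ncam1, another adhesion partner, had ratios of 0.45 and 0.65 (adjusted p = 0.0518 in limma). These 2 genes were the only ones kept of 7 Ptprz1 partners.

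Of 19 other receptors and relatives, 12 were tested. Lrp2, an endocytic receptor of the forebrain midline that binds midkine, had signals of 450 and 511 in wild type and of 953 and 790 in Plzf lu/lu. Its log2 ratio was 1.08 on array 1 and 0.63 on array 2, and a further probe of Lrp2 gave a mean of 0.73. Limma gave an adjusted p of 0.0510. Notch2, described as a midkine receptor, had ratios of 0.63 and 0.38 (adjusted p = 0.0577 in limma). Ncl, nucleolin, a low-affinity binder of both ligands, had the lowest ratio of this list, at -0.12 and -0.46, while its other kept probe gave a mean of 0.19.

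Among 9 tested signalling genes of 12, Ctnnb1 and Irs1 were beyond 1.3-fold higher. Ctnnb1 encodes beta-catenin, a substrate of Ptprz1. Its brightest probe gave 0.75 and 0.54, but its other kept probe gave a mean of -0.06, so the direction rests on the probe. Irs1, an adaptor of receptor tyrosine kinases such as Alk, gave 0.40 and 0.41. Shc1, a further adaptor, had the lowest mean of the list at -0.12.

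The enzymes that build or trim the sugar chains bound by the ligands went both ways. Of 23 heparan sulfate genes, 15 were tested, with a median of 0.06, 7 at an unadjusted p under 0.05 in limma and 0 after adjustment. Of 16 chondroitin sulfate genes, 3 were tested, with a median of 0.07, 2 at an unadjusted p under 0.05 and 0 after adjustment. Hs6st2, a heparan sulfate 6-O-sulfotransferase, gave 0.81 and 0.44 at its brightest probe, and a mean of 0.09 at its other kept probe. Hs3st2, a 3-O-sulfotransferase, gave 0.65 and 0.62. Extl3, a chain-initiating transferase, had the lowest mean of the heparan sulfate list at -0.29. Chsy1, a chondroitin synthase, and Dsel, related to the dermatan sulfate epimerase, were the highest and lowest of the chondroitin list, with means of 0.23 and -0.28.

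Of 16 other proteoglycans, 8 were tested, and 1 of them was beyond 1.3-fold. Gpc4, a glypican of neural progenitors, gave 0.54 and 0.55, and its further probe gave a mean of 0.58. Ncan, the neural chondroitin sulfate proteoglycan neurocan, had the highest mean of this list but gave 0.11 on array 1 and 1.07 on array 2, the same order of arrays as Ptprz1. Gpc2, a glypican that binds midkine, had the lowest mean and gave -0.86 on array 1 and -0.09 on array 2. The adjusted p in limma was 0.154 for Ncan and 0.164 for Gpc2, and 0.0510 for Gpc4.

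**Figure D5:**
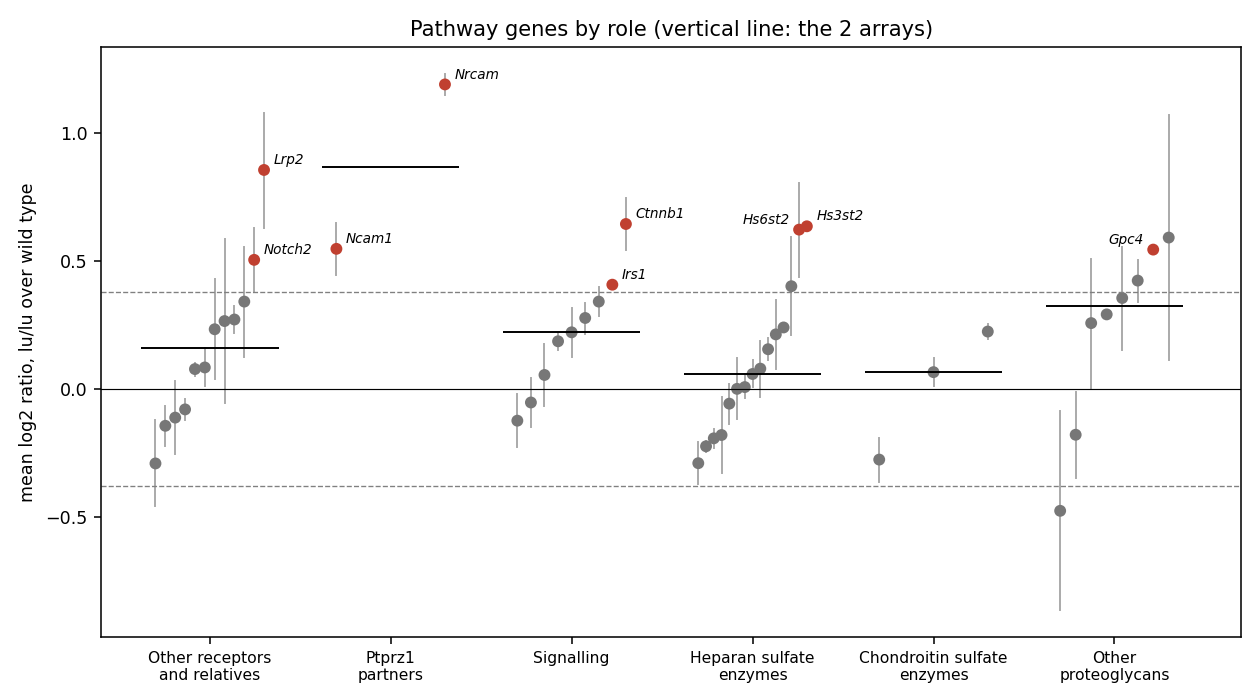
Mean log2 ratio of Plzf lu/lu over wild type for the tested pathway genes, by role (each point is 1 gene, its vertical line joins the 2 arrays, and the short horizontal line is the median of the list). Red points are the 9 genes beyond 1.3-fold on both arrays, all above 0, and dashed lines mark 1.3-fold.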

How the data were processed

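RNA was labeled by low-input amplification and hybridized to Agilent SurePrint G3 mouse arrays. The authors scanned them and used Feature Extraction 10.7.3.1, which subtracted background and balanced the dyes of an array by LOWESS on rank-consistent probes. The deposited values are spot intensity and a log10 ratio (Cy5 over Cy3), and a deposited series table holds the same ratio as log2, within 0.005. Arrays were not normalized to each other.

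Control and outlier spots were left out, and repeated spots of a probe were averaged as log2 values. Member probes were kept apart, and other genes were read from their brightest kept probe. The signal-to-noise ratio was the mean signal less the median local background, over the SD of background pixels. The ratios were fitted with limma 3.58.1 under R 4.3.3, as an intercept per gene moderated by eBayes, and p-values were adjusted over 10600 genes by Benjamini and Hochberg. Other steps used Python 3.11.15, numpy 2.4.6, pandas 2.3.3, statsmodels 0.14.6, data.table version 1.17.8 and matplotlib 3.10.9. The number of arrays, 2, limits the precision, and an exact sign-flip test with 2 arrays cannot go below p = 0.5. The design calls the samples biological replicates.

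Members, lists and tests were chosen with earlier results of these data known. Named pathway genes are those that both arrays put beyond 1.3-fold the same way, and the highest and lowest mean of each list. The fit was tested on simulated data (20 simulations of lu/lu against wild type with 10600 genes, 200 of them changed by 1 log2 unit). Limma called 97% to 100% of the 200, and a median of 17 unchanged genes. The simulated noise was independent between genes and held no GC or probe position trend. These values therefore do not carry over to the arrays.

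Alternatives were normexp (offset 50) with loess, the series table, removal of the probe GC trend (lowess, span 0.67), spots well above background or no filter, the mean over probes, 1.5-fold, eBayes with trend, the channels without pairing by array, and each array alone. The count without Lrp2 and Nrcam was added after seeing the data.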

Additional observations from a re-analysis of the deposited data

How the results depend on the processing

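No result past a threshold changed direction under an alternative. The Ptn 3′ probe, at -0.22, gave 0.08 on array 1 alone, and Alk, at -0.0021, gave 0.015 with the GC trend removed and 0.11 on array 1 alone. On array 1 the Ptprz1 downstream probe changed from 0.05 to -0.07 with the GC trend removed. The Ptn 5′ probe lay between -0.71 and -0.64 on the mean log2 scale under the other normalizations and the GC correction. With the GC trend removed, the last Mdk tail probe (A_55_P2503910) gave -0.23 and Sdc3 -0.38. With normexp and loess, the Mdk tail probe A_51_P225665 gave -0.22, the Mdk junction probe -0.45 and Sdc3 -0.27. Counts of changed features depended on the filter, the fold and the use of both arrays. Higher genes numbered 586 with spots well above background, 1695 with no filter, 41 at 1.5-fold and 477 to 875 on 1 array. Lower genes numbered 484, 2173, 12 and 208 to 592, higher probes 766, 2645, 42 and 532 to 963, and lower probes 779, 3529, 17 and 281 to 833. Higher pathway genes numbered 3 at 1.5-fold, 11 on array 2 alone and 16 on array 1 alone, and lower ones 2 with spots well above background, 3 with no filter and 1 on either array alone. The median of the Ptprz1 partners was 0.78 with the GC trend removed, 0.25 with spots well above background and 0.22 with no filter. That of the signalling list was 0.16 with the GC trend removed and 0.15 without replicate 1, and that of the other proteoglycans 0.078 with spots well above background and 0.15 with no filter. The cause was not tested.

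The limma calls were unstable. At an adjusted p under 0.05, 3 genes and 1 pathway gene passed. With no filter, spots well above background, normexp and loess, the series table, the mean over probes or the channels without the replicate block, limma gave 0 and 0, with between 2489 and 3960 genes and between 15 and 27 pathway genes at an unadjusted p under 0.05. It gave 466 and 9 with the GC trend removed, and 393 and 9 with eBayes and trend. The adjusted p of Nrcam in limma was 0.0394 in the fit reported. It ranged from 0.0167 with the GC trend removed to 0.506 with no filter. For single named pathway genes, 15 values came to pass the threshold, 6 no longer passed it (all of them Nrcam), and the others kept their side of it. A fit with 1 array left out could not be made.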

Other observations

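The genes outside the members whose log2 ratios on arrays 1 and 2 lay nearest those of the Ptn 3′ probe, by the larger of the 2 absolute differences, were Arpc3 (0.0248), Tmem88 (0.0439), Anpep (0.0512), Dusp9 (0.0518) and Eno3 (0.0683). Arpc3, a subunit of the actin-nucleating Arp2/3 complex, gave 0.05 on array 1 and -0.51 on array 2. Anpep, an aminopeptidase of vessels and perivascular cells, gave 0.02 and -0.47. Eno3, the muscle enolase, gave 0.07 and -0.44. With 2 arrays, likeness rests on 2 values, and many genes can match by number alone.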
